A study of Arabidopsis thaliana with 8 samples.

Results

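CRABS CLAW (CRC, AT1G69180), YABBY5 (YAB5, AT2G26580), YABBY3 (YAB3, AT4G00180) and INNER NO OUTER (INO, AT1G23420) were the members of the YABBY family followed here in the floral nectaries of Arabidopsis thaliana. They were taken by locus, as the genes of the family that a probe set of the ATH1 array reads alone, and they make up 4 of the 22746 probe sets analysed. The family list held 6 genes, and FIL and YAB2 were not analysed here because no probe set was tied to either locus alone. The probe sets were 260355_at for CRC, 245029_at for YAB5, 255709_at for YAB3 and 262989_at for INO. That of CRC was tied to its locus only by a list of nectary genes that the study drew up from these same arrays, so the height of its signal is not independent evidence, and the others were tied by the platform annotation.

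YABBY proteins are transcription factors of seed plants that combine a zinc finger with a second DNA-binding region, the YABBY domain. In leaves and floral organs they are known for promoting the identity of the lower, abaxial side and the outgrowth of the blade, and they act together with co-regulators of the LEUNIG and SEUSS kind. CRC is the member known from nectaries, since crc mutants form none, and it also shapes the carpel.

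Mature median nectaries (MMN) and mature lateral nectaries (MLN) were taken from flowers at stages 14 to 15, and immature lateral nectaries (ILN) from flowers at stages 11 to 12, all of untreated Columbia-0 plants. The lateral nectary secretes most of the nectar, so that MLN are secretory, ILN are pre-secretory and MMN are described by the submitters as non-secretory. There were 2 MMN arrays, 3 MLN arrays and 3 ILN arrays, each hybridized with RNA of 1 pool of about 250 to 300 hand-dissected nectaries from different plants than the other pools. Plants were 30 to 35 days old and kept in a 16 h day and 8 h night, nectaries were collected 4 to 8 h after dawn, and 250 ng of RNA were labelled for MMN against 500 ng for MLN and ILN. No immature median nectaries were among the samples, so nectary position can be compared only at maturity. There it goes together with the amount of RNA labelled, and these cannot be told apart. Between MMN and ILN, position, stage and amount of RNA all differ together and cannot be told apart either. The same holds for the MMN arrays where both mature types are set against ILN.

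The study amplified CRC and YAB5 from cDNA with the following primers, which are shown because they identify the transcripts of both strongly detected family members. They are written 5′ to 3′, and each is 24 bases long with 50% G and C.
CRC forward: tcacctccctttgtcgtcaaacct
CRC reverse: tcttctcaccgaatcccaagccat
YAB5 forward: attcttgcggtgaatgtcccatgc
YAB5 reverse: aggaaagtgtgcccaattcttggc

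Values are linear signal intensities, normalized so that the median of every array is 100, with the lowest signal of an array between 8.30 and 9.65 and the highest between 14929 and 23364. Differences are on the log2 scale from limma, fitted over all 8 arrays, and a gene is called changed where its p is under 0.05 after Benjamini-Hochberg adjustment across the 22746 probe sets. Log2 signals correlated at 0.963 to 0.988 between arrays of a type and at 0.898 to 0.982 between types, with ILN 1 and ILN 3 the least alike of any arrays sharing a type. Of the nectary marker list, 4 of 5 genes were measured. Over the 8 arrays SWEET9, a sucrose transporter of the nectary, ranged from 10236 to 16897, CWINV4, a cell wall invertase needed for nectar, from 10807 to 13661, PIN6, an auxin transporter, from 4496 to 12734, and JMT, a methyltransferase of jasmonate, from 1932 to 19214. All 4 were thus far above the array median on every array, although the probe sets of CWINV4 and PIN6 were tied to them only by lists drawn from these arrays. A smaller share of nectary cells in a pool and less RNA per cell cannot be told apart in these values.

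The family fell into a bright and a dim pair. CRC and YAB5 stood near the top of every array, while YAB3 and INO stayed close to or below the array median. None of the 4 genes was called changed in any of the 3 comparisons (0 of 4 each). For MLN against ILN, 12.0% of all probe sets were called higher and 11.5% lower. The shares were 0.572% higher and 0.158% lower for MMN against MLN, and 9.97% higher and 8.86% lower for MMN against ILN. None of the 4 genes had MLN and ILN arrays that did not overlap, as 41.0% of all probe sets had, nor mature and ILN arrays apart, as 32.7% had. Of the 4, YAB5 had the largest difference between MLN and ILN, CRC had its highest mean in MMN, and INO was lower on both MMN arrays than on any MLN array.

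**Figure D1:**
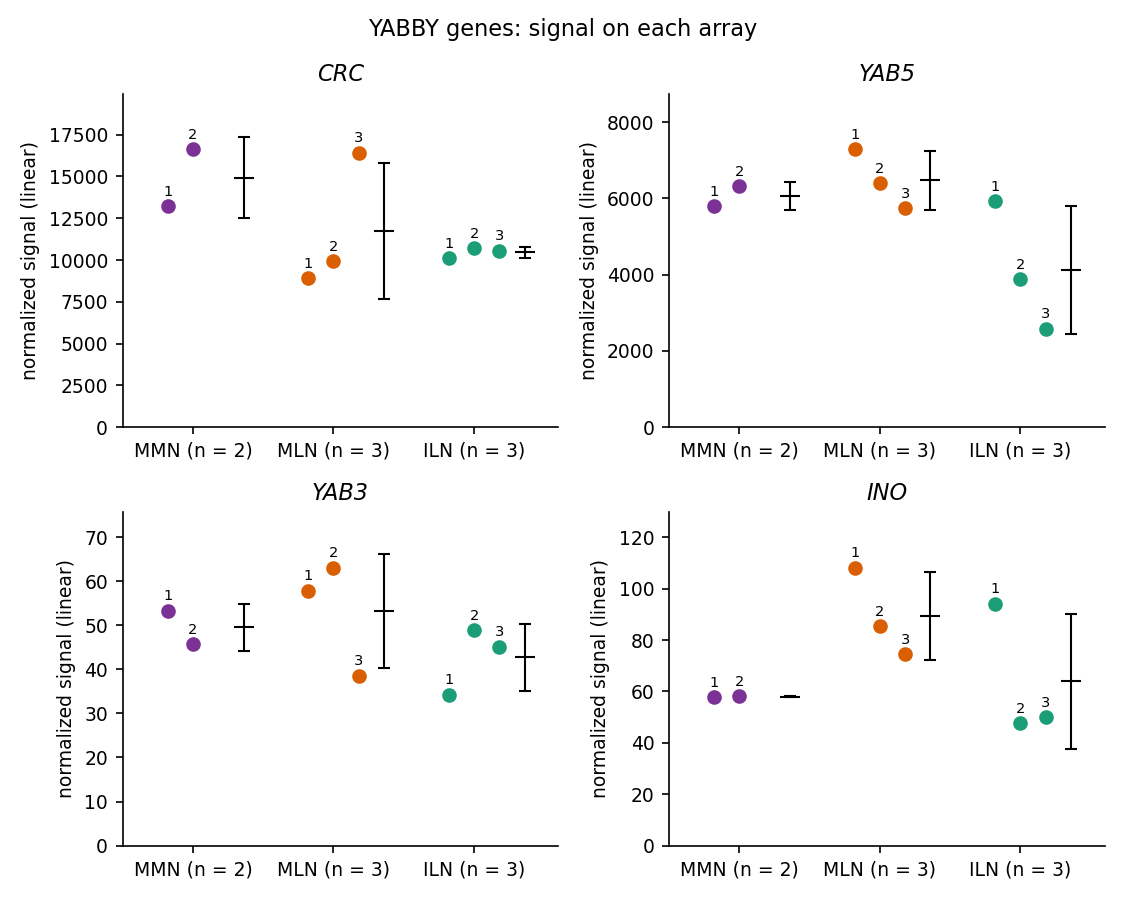
Normalized linear signal (vertical axis, array median 100) of CRC, YAB5, YAB3 and INO on each array. Points are single arrays numbered by replicate in MMN (n = 2), MLN (n = 3) and ILN (n = 3), and the bars give the mean and SD. The CRC signals of MMN 2 (16636) and MLN 3 (16412) stand above all others while the ILN arrays lie close together, and ILN 1 stands above ILN 2 and ILN 3 for YAB5 and INO.

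CRC, the regulator without which nectaries do not form, had signals of 13214 and 16636 in MMN, 8916, 9912 and 16412 in MLN, and 10098, 10705 and 10565 in ILN. Both MMN arrays lay above all ILN arrays, whereas the MLN arrays overlapped both other types since MLN 3 was close to MMN 2 and the other MLN arrays were below all ILN arrays. The means were 14925 ± 2420 in MMN (SD, n = 2), 11746 ± 4071 in MLN (SD, n = 3) and 10456 ± 318 in ILN (SD, n = 3). The order of these levels was thus MMN, MLN and ILN, and no neighbours in it differed beyond their spread. On the log2 scale the SD was 0.23 in MMN, 0.47 in MLN and 0.04 in ILN, where it was lowest.

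Among the 22746 probe sets of an array, CRC ranked 15 and 3 in MMN, 52, 37 and 8 in MLN, and 36, 23 and 13 in ILN. Ranks describe brightness and not abundance, because probe sets differ in how strongly they bind. The ranks of CRC in MLN took in all of those in ILN and that of MMN 1. The signal of CRC was 64.7% and 82.4% of the brightest probe set of the array in MMN, 43.3%, 42.4% and 85.4% in MLN, and 53.8%, 58.1% and 70.8% in ILN. Measured in this way, too, all ILN arrays lay above MLN 1 and MLN 2 and below MLN 3.

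**Figure D2:**
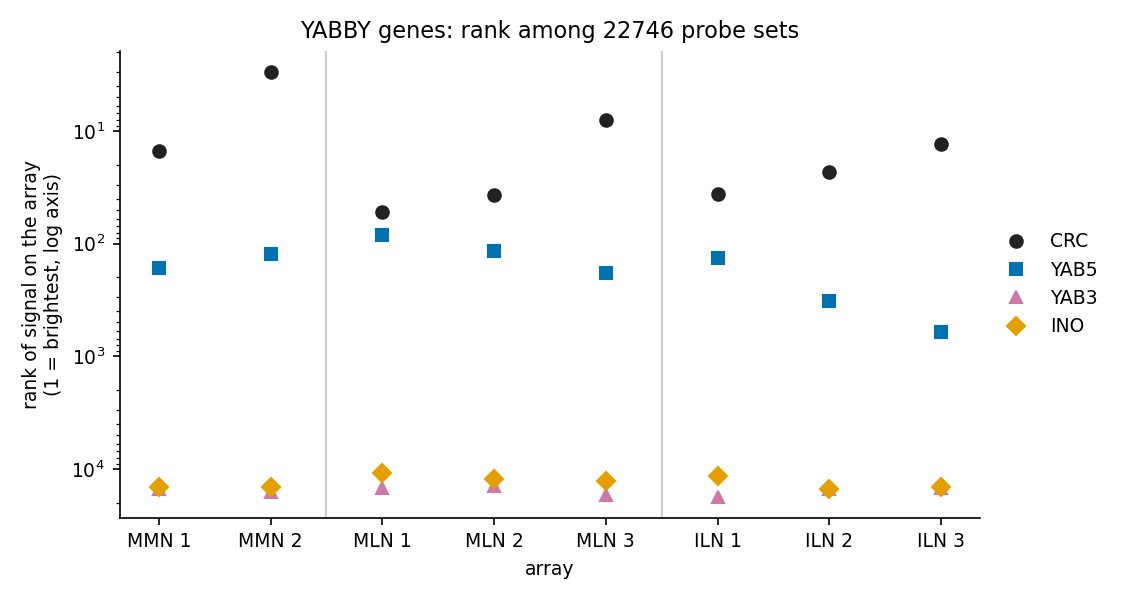
Rank of the signal of CRC, YAB5, YAB3 and INO among all 22746 probe sets on each array (vertical log axis, 1 is the brightest probe set). CRC keeps to ranks 3 to 52 and YAB5 to ranks 84 to 614, with its lowest places on ILN 2 and ILN 3, while YAB3 and INO lie far below both on all 8 arrays.

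Secretory and pre-secretory lateral nectaries were compared to follow the onset of secretion. CRC was 1.08-fold in MLN over ILN, a log2 difference of 0.11 (standard error 0.23, 95% interval -0.39 to 0.62, limma adjusted p = 0.727). In the same comparison 23.6% of all probe sets were called. The difference of CRC was -0.15 without MLN 3 and -0.07 after a new quantile normalization, so its direction was not settled. The median log2 difference of all probe sets was 0.17 in MLN against ILN, and relative to that median difference CRC stood at -0.06. For comparison of position, CRC was 1.31-fold in MMN over MLN, a log2 difference of 0.39 (standard error 0.26, 95% interval -0.18 to 0.96, limma adjusted p = 0.841), where 0.730% of all probe sets were called.

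The comparison of MMN with ILN shares its arrays with the comparisons above. There CRC was 1.42-fold higher, a log2 difference of 0.50 (standard error 0.26, 95% interval -0.06 to 1.07, limma adjusted p = 0.206). Although the 2 MMN arrays and the 3 ILN arrays did not overlap for CRC, 50.8% of all probe sets were apart in this way, and 18.8% were called. With both mature types together, 3 of 5 mature arrays lay above the ILN mean of CRC, and the log2 difference of 0.27 gave p = 0.339 in a two-sided exact permutation test over 56 regroupings, whose smallest possible p is 0.0179. CRC was thus measured at a high level in the pre-secretory, secretory and non-secretory pools, with no change called among them. The upper bounds of the intervals still allow a log2 rise of 0.62 in MLN and 1.07 in MMN over ILN.

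YAB5, which contributes with other members to the growth of the leaf blade, had signals of 5802 and 6318 in MMN, 7294, 6397 and 5742 in MLN, and 5921, 3882 and 2587 in ILN. The 5 mature arrays lay within a narrow band, ILN 1 fell inside that band, and ILN 2 and ILN 3 were below it. The means were 6060 ± 365 in MMN (SD, n = 2), 6478 ± 779 in MLN (SD, n = 3) and 4130 ± 1681 in ILN (SD, n = 3). The order was MLN, MMN and ILN, in which no neighbours passed the test. YAB5 ranked 166 and 124 in MMN, 84, 117 and 183 in MLN, and 133, 325 and 614 in ILN, so it stayed within the brightest 2.70% of probe sets on every array.

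YAB5 was 1.65-fold in MLN over ILN, a log2 difference of 0.72 (standard error 0.26, 95% interval 1.11-fold to 2.46-fold, limma adjusted p = 0.0679). Relative to the median difference of all probe sets it was 0.55, and 91.1% of probe sets had a lower difference than YAB5. The call depended on the ILN 1 array and on the model. Without ILN 1 the difference was 1.02 with a limma adjusted p of 0.00376, and without ILN 3 it was 0.43 with an adjusted p of 0.222. In both lateral types the array numbered 1 had the highest YAB5 signal and the array numbered 3 the lowest. With the replicate number as a block, the same difference of 0.72 gave a limma adjusted p of 0.0279. No label states a pairing by number, and it was read from these same arrays, so that p is not independent evidence.

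Between the mature types, YAB5 differed by -0.09 in MMN against MLN (standard error 0.29, 95% interval -0.74 to 0.55, limma adjusted p = 0.981). MMN was 1.55-fold over ILN for YAB5, a log2 difference of 0.63 (standard error 0.29, 95% interval -0.01 to 1.28, limma adjusted p = 0.162). Without ILN 1 this difference was 0.93 with a limma adjusted p of 0.0133. All 5 mature arrays lay above the ILN mean, and the log2 difference of 0.69 between mature and immature nectaries gave p = 0.0536 in the two-sided exact permutation test. Without ILN 1, the only ILN array inside the mature band, it was 0.99. The other ILN arrays lay below every mature array, so the exact permutation p took its smallest value, 0.0476 with 21 regroupings. That p follows from which array was left out and is no further evidence of a change. What set ILN 1 apart from ILN 2 and ILN 3 was not tested.

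**Figure D3:**
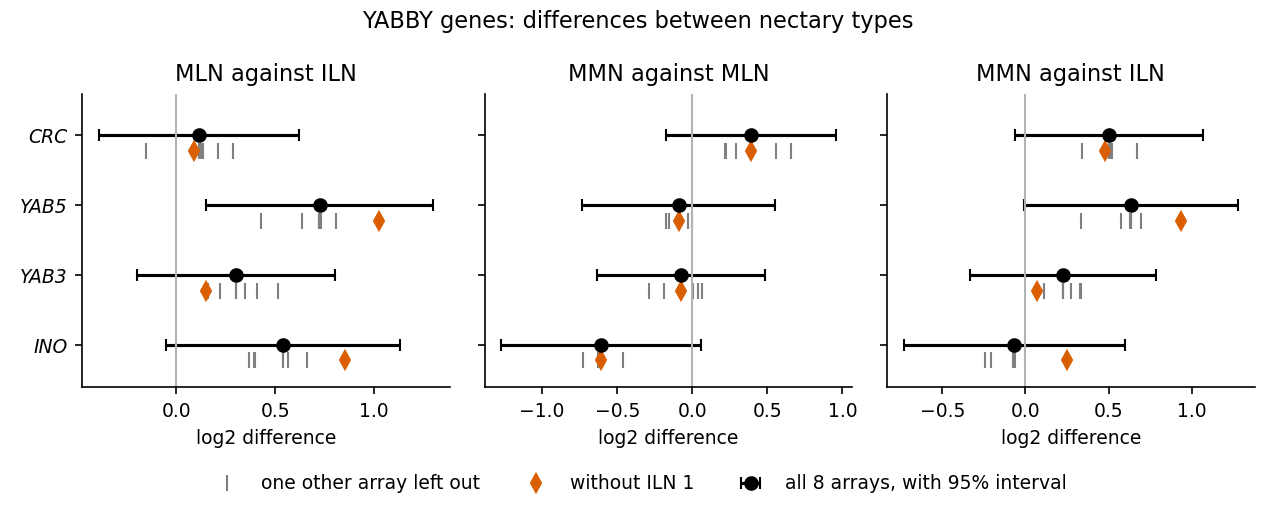
Log2 differences (horizontal axis) of CRC, YAB5, YAB3 and INO for the 3 pairs of nectary types, with limma's 95% intervals over all 8 arrays as bars. Grey marks leave out each of the other arrays in turn and diamonds leave out ILN 1, which moves YAB5 to 1.02 and INO to 0.85 in MLN against ILN.

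YAB3, which acts alongside FIL in establishing the abaxial side of leaves and floral organs, had signals of 53.3 and 45.7 in MMN, 57.9, 63.1 and 38.5 in MLN, and 34.2, 48.9 and 45.1 in ILN. The 3 types overlapped throughout, and both the highest and one of the lowest signals came from MLN. All signals were below the array median of 100, and with no detection call used here they do not establish that the transcript was present. The means were 49.5 ± 5.39 in MMN (SD, n = 2), 53.2 ± 12.9 in MLN (SD, n = 3) and 42.7 ± 7.63 in ILN (SD, n = 3), and no neighbours in the order MLN, MMN and ILN differed beyond their spread.

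The log2 difference of YAB3 was 0.30 in MLN against ILN (standard error 0.23, 95% interval -0.20 to 0.80, limma adjusted p = 0.346). It was -0.08 in MMN against MLN (95% interval -0.63 to 0.48, adjusted p = 0.981 from limma) and 0.22 in MMN against ILN (95% interval -0.34 to 0.78, adjusted p = 0.594 from limma). Relative to the median difference of all probe sets, YAB3 stood at 0.13 in MLN against ILN and 0.11 in MMN against ILN. Of the mature arrays 4 of 5 lay above the ILN mean, and the log2 difference of 0.27 gave a two-sided exact permutation p of 0.214.

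INO, known for the outer integument of the ovule, had signals of 57.8 and 58.3 in MMN, 108, 85.5 and 74.5 in MLN, and 94.1, 47.7 and 50.0 in ILN. Both MMN arrays lay below all MLN arrays, and the ILN arrays overlapped the MLN arrays, with ILN 1 among the MLN values and ILN 2 and ILN 3 below MMN. MLN 1 was the only array on which INO exceeded the array median. The means were 58.0 ± 0.331 in MMN (SD, n = 2), 89.4 ± 17.2 in MLN (SD, n = 3) and 63.9 ± 26.1 in ILN (SD, n = 3). In the order MLN, ILN and MMN, no neighbours differed beyond their spread.

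INO differed by -0.61 on the log2 scale in MMN against MLN (standard error 0.30, 95% interval -1.27 to 0.06, limma adjusted p = 0.739). Only 2.11% of all probe sets had a lower difference, but 25.1% had arrays of MMN and MLN that did not overlap. In MLN against ILN the difference of INO was 0.54 (standard error 0.27, 95% interval -0.06 to 1.13, limma adjusted p = 0.169), and without ILN 1 it was 0.85 with an adjusted p of 0.0123. In MMN against ILN it was -0.07 (95% interval -0.73 to 0.60, limma adjusted p = 0.907), and 0.25 without ILN 1, so its sign was not settled. With the mature types together, the log2 difference of 0.30 gave a two-sided exact permutation p of 0.375, and 3 of 5 mature arrays were above the ILN mean. No detection call was used here, so the INO values describe a dim probe set and not a known amount of transcript.

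The members were also set against each other, as changes and not as levels, through the difference of their log2 signals within each array. Between mature and immature nectaries the change of YAB5 exceeded that of CRC by 0.42, that of YAB3 by 0.42 and that of INO by 0.39. Leaving out ILN 1 gave 0.74 against CRC, 0.87 against YAB3 and 0.38 against INO, and leaving out ILN 3 gave 0.11, 0.07 and 0.24 in the same order. The changes of CRC, YAB3 and INO lay within 0.03 of one another. None of the 6 pairs passed, with adjusted p of 0.679 to 1 over the 6 pairs in two-sided exact permutation tests. Within MLN and ILN arrays of the same replicate number, an alternative added after the data had been seen, YAB5 less CRC was 0.48, 0.83 and 0.51 higher in MLN, a mean of 0.61 ± 0.19 (SD, n = 3 pairs). All 3 pairs had the same sign, for which a two-sided exact sign-flip permutation test gave p = 0.25, the smallest that 3 pairs allow. A difference between the change of YAB5 and that of CRC did not pass in either test, and 3 pairs could not have passed. For each member the pooled SD within types on the log2 scale was above the median of all probe sets, 0.24. It was 0.32 for CRC, 0.40 for YAB5, 0.30 for YAB3 and 0.39 for INO. In that order, 71.6%, 85.2%, 68.3% and 84.2% of all probe sets had a smaller SD.

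Some genes were called from a list of floral regulators shown or proposed to act on CRC, which also held the BOP genes. Of 13 genes on this list 5 were measured, and none was called between MMN and MLN. Of the 5, 3 were called higher in MLN than in ILN and 3 higher in MMN than in ILN. Over all probe sets 12.0% were called higher in MLN and 9.97% in MMN. The median difference of the 5 was 0.76 in MLN against ILN, where that of all probe sets was 0.17. SHP2, a MADS-box factor that activates CRC redundantly with its relatives, had signals of 7890 and 5921 in MMN, 7449, 7776 and 8088 in MLN, and 2448, 3700 and 3328 in ILN. All mature arrays exceeded all ILN arrays, which held for 19.4% of all probe sets. The log2 difference was 1.32 in MLN against ILN (standard error 0.20, limma adjusted p = 7.58e-04). It was 1.14 in MMN against ILN (standard error 0.22, limma adjusted p = 0.00471), with an adjusted p of 0.0761 without MMN 1. SHP2 was tied to its probe set only by lists drawn from these arrays, so its place in the count is not independent evidence.

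AP2, a floral identity factor that restricts AGAMOUS, had signals of 2080 and 3024 in MMN, 2232, 2861 and 2444 in MLN, and 940, 1126 and 867 in ILN. Every mature array was above every ILN array, with a log2 difference of 1.36 in MLN against ILN (limma adjusted p = 6.19e-04) and 1.37 in MMN against ILN (limma adjusted p = 0.00166). SEP1, the partner of other MADS-box factors in floral organs, had signals of 2864 and 2853 in MMN, 2027, 2364 and 1674 in MLN, and 1162, 1350 and 1055 in ILN. No types overlapped for SEP1. Of all probe sets, 41.0% were apart for MLN against ILN, 25.1% for MMN against MLN and 50.8% for MMN against ILN. SEP1 rose by 0.76 in MLN against ILN (limma adjusted p = 0.0123) and by 1.27 in MMN against ILN (limma adjusted p = 0.00161). PI, which specifies petals and stamens, ranged from 49.1 to 106 and UFO, a floral F-box protein, from 55.6 to 143 over the 8 arrays, and neither was called. As for YAB5 and INO, the UFO signal of 137 in ILN 1 stood above those of 69.7 and 55.6 in ILN 2 and ILN 3. CRC itself was not called in these comparisons, and the difference between its change and theirs was not tested.

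Of 5 co-regulators with which YABBY proteins form complexes, 2 were measured. SLK1, a SEUSS-like adaptor, had signals of 348 and 351 in MMN, 284, 313 and 367 in MLN, and 132, 205 and 126 in ILN. It was higher on all mature arrays, by 1.09 in MLN against ILN (limma adjusted p = 0.00481) and by 1.21 in MMN against ILN (limma adjusted p = 0.00585). For MMN against ILN, SLK1 had limma adjusted p of 0.0507 without MMN 1 and 0.0587 without MMN 2. SEU, the founding SEUSS adaptor, had signals of 389 and 385 in MMN, 375, 324 and 448 in MLN, and 303, 282 and 283 in ILN. All mature SEU signals exceeded the ILN signals, but SEU was not called.

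**Figure D4:**
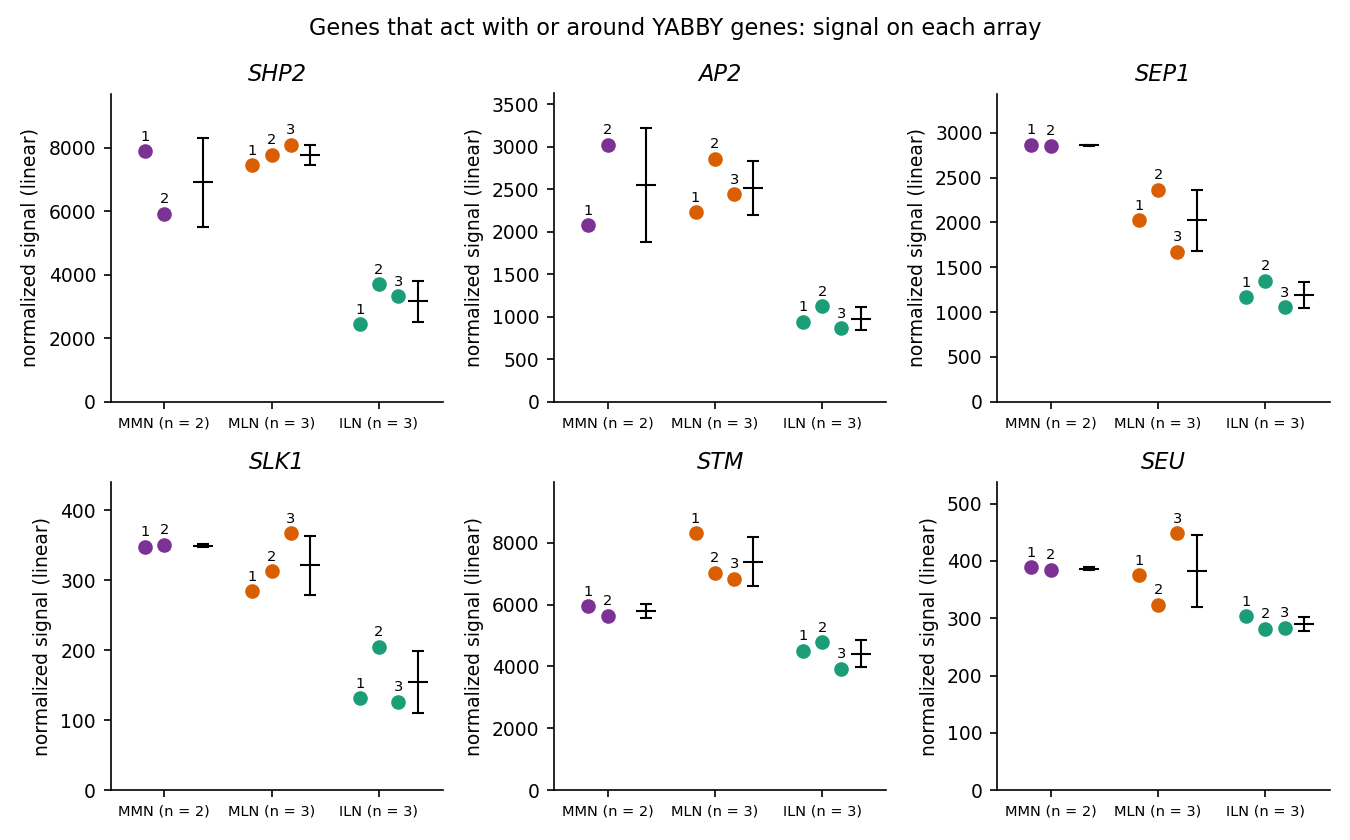
Normalized linear signal (vertical axis, array median 100) on each array of the floral regulators SHP2, AP2 and SEP1, the adaptors SLK1 and SEU, and STM. Points are single arrays of MMN (n = 2), MLN (n = 3) and ILN (n = 3) with the mean and SD beside them, and the panels hold the called genes of these lists and SEU, so that the mature arrays lie above the ILN arrays in each, as for 19.4% of all probe sets.

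Of 7 genes reported downstream of CRC or of FIL and YAB3, 2 were measured. STM, a homeobox gene of the meristem that YABBY genes are known to restrain in lateral organs, had signals of 5946 and 5638 in MMN, 8305, 7028 and 6839 in MLN, and 4516, 4780 and 3930 in ILN. The 3 types did not overlap for STM, where single pairs of types were apart for 25.1% to 50.8% of all probe sets. It rose by 0.74 in MLN over ILN (standard error 0.17, limma adjusted p = 0.00854), while MMN against ILN had an adjusted p of 0.173, and its probe set, too, was tied to it only by lists drawn from these arrays. YUC4, an enzyme of auxin synthesis, was dim at 21.8 to 37.2 on all 8 arrays and was not called. Of 13 polarity genes, KAN2, which promotes abaxial identity, ranged from 42.1 to 77.4 and PHV, which promotes adaxial identity, from 236 to 416, and neither was called. The ovule gene SPL, the only measured one of 5, ranged from 37.8 to 69.9 and was not called. Over these lists of regulators, partners, targets, polarity and ovule genes, 7 of 12 measured genes had mature and ILN arrays that did not overlap, against 32.7% of all probe sets, and 5 overlapped. SHP2 and STM are among the 7, and their probe sets were tied to them only by lists drawn from these arrays. The count is therefore not independent evidence.

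Markers of other tissue were read because CRC and INO are also expressed in the carpel or ovule. Of 6 carpel and ovule markers 2 were measured, and their summed signal was 867 to 979 in MMN, 171 to 339 in MLN and 211 to 297 in ILN. NGA1, a carpel and leaf-margin regulator, had signals of 792 and 503 in MMN, 36.3, 41.1 and 28.7 in MLN, and 41.4, 26.4 and 22.2 in ILN. It was higher in MMN, by 4.17 against MLN (limma adjusted p = 7.96e-05) and by 4.45 against ILN (limma adjusted p = 5.85e-06), while SPT, a carpel margin factor, was not called. Whether carpel tissue had a part in the CRC signals of MMN was not tested, and CRC was not called in MMN against MLN. Of 6 stamen markers 2 were measured, with summed signals of 75.2 to 84.7 in MMN, 70.4 to 104 in MLN and 55.2 to 72.9 in ILN, and neither AMS nor MGH3 was called. The 9 photosystem and antenna genes read for green tissue summed to 22466 to 24130 in MMN, 25945 to 31788 in MLN and 22449 to 29034 in ILN, and only LHCB4.3 was called, lower in MLN and in MMN than in ILN, where 11.5% and 8.86% of all probe sets were, though not without MLN 2, ILN 2 or ILN 3 for MLN and not without MMN 2 for MMN. JMT, the only called one of the 4 nectary markers, differed by 2.04 for MLN against ILN (adjusted p = 0.00104 in limma) and by -2.31 for MMN against MLN (adjusted p = 0.0127 in limma). Over all probe sets, 23.6% were called for MLN against ILN and 0.73% for MMN against MLN. The JMT difference for MMN against MLN had limma adjusted p of 0.110 without MMN 1 and 0.0537 without MLN 1.

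The genes most like each member over the 8 arrays were sought among 7050 single-locus probe sets with a mean signal of at least 100, by Pearson's r of the log2 signals. These arrays share their normalization and their pools, so r is a description. For CRC they were AT2G16365 (r = 0.989), AT3G58730 (r = 0.972) and PHL1 (r = 0.967), a factor of the phosphate starvation response. AT2G16365 had signals of 475 and 866 in MMN, 210, 285 and 808 in MLN, and 305, 386 and 338 in ILN. Like CRC, it was highest on MMN 2 and MLN 3.

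For YAB5 the closest were AT2G25250 (r = 0.982), AT4G10810 (r = 0.979) and AT5G01710 (r = 0.975). AT2G25250 had signals of 889 and 902 in MMN, 1031, 972 and 877 in MLN, and 778, 646 and 419 in ILN, with ILN 1 nearest to the mature arrays as for YAB5. PIN6 also had 10490 in ILN 1 and only 5645 and 4496 in ILN 2 and ILN 3. Its signals were 12734 and 10884 in MMN and 12620, 9287 and 11160 in MLN, and it was not called.

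For YAB3 the closest were TRY (r = 0.951), a repressor of trichome fate, AT1G09800 (r = 0.943) and AT1G14345 (r = 0.936). TRY had signals of 684 and 489 in MMN, 850, 1106 and 344 in MLN, and 133, 437 and 302 in ILN, with MLN 2 highest and ILN 1 lowest as for YAB3. For INO they were AT4G09840 (r = 0.966), AT4G14390 (r = 0.964) and AT5G48640 (r = 0.960). AT5G48640 had signals of 1487 and 1359 in MMN, 2616, 1879 and 1466 in MLN, and 2355, 1104 and 1005 in ILN. MLN 1 and ILN 1 carried its highest signals, as they did those of INO.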

How the data were processed

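RNA of 8 nectary pools (MMN, n = 2; MLN, n = 3; ILN, n = 3) was measured on Affymetrix ATH1 arrays. The authors ran quantile normalization and RMA summarization in Genedata Expressionist, with public reference arrays included, and deposited linear signal intensity values scaled to an array median of 100. No source used here gives the software versions. The table holds 22810 probe sets, of which 64 control sets were left out. A quantile step sets all arrays to 1 distribution, so a shift of most transcripts would not be seen, and background remains in dim signals. The number of arrays limits the precision. Since the 8 pools were separate, p-values cover the spread between pools. The main limma fit and the exact tests of mature against immature nectaries treat the pools as independent. They leave out the pairing of MLN and ILN by replicate number described below, which enters only as an alternative.

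Log2 signals were fitted with limma 3.58.1 in R 4.3.3, with 1 mean for each type, variances moderated along the mean signal, and Benjamini-Hochberg adjustment over 22746 probe sets. Folds are ratios of geometric means. Mature and immature nectaries were compared by exact permutation tests in Python 3.11.15 (numpy 2.4.6, pandas 2.3.3), and matplotlib 3.10.9 drew the figures. Both procedures were tested on simulated data. Exactly 1 locus was assigned to 14220 probe sets, 13419 by the platform annotation and 801 by the study's supplementary tables alone. Symbols came from a RefSeq table of the TAIR10.1 assembly, and no coordinates were used.

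Members, lists and the rule for named genes (the members, up to 4 measured genes of each list by adjusted p, and the 3 genes most like each member) were chosen with earlier results of these data known. The lists of green tissue and phloem markers had no measured gene, and photosystem and antenna genes were added in place of the first after the data had been seen. For MLN and ILN arrays of the same replicate number, deviations from the type means correlated at 0.338, 0.241 and 0.211 across probe sets. These were above 0.1 for every pair, so the numbers were taken to pair them. No label states this pairing. It was read from these same arrays, so a pass with the block is not independent evidence. The correlations of MMN arrays with lateral arrays of the same number were at -0.0710 to 0.0721, yet the block covered MMN as well. The alternatives tried were array weights, a constant variance prior, a fit limited to the types compared, a minimum mean signal of 100, a second quantile normalization, centring on the median log2 signal, the methods' t-test (linear signals, Benjamini-Hochberg adjustment), the replicate number as a block, linear signals in the permutation tests, and each array left out in turn.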

Additional observations from a re-analysis of the deposited data

How the results depend on the processing

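YAB5 in MLN against ILN had a limma adjusted p of 0.0679 and stayed uncalled in 12 of 16 alternatives, those leaving out an array included. Among these were the methods' t-test (Benjamini-Hochberg adjusted p = 0.239), a new quantile normalization (limma adjusted p = 0.107) and a constant variance prior (limma adjusted p = 0.0785). It passed in limma with dim probe sets left out (0.72, adjusted p = 0.0479) and with array weights (0.87, adjusted p = 0.0300). It also passed with the replicate number as a block (0.72, limma adjusted p = 0.0279) and without ILN 1. The block changed no other call of a member. CRC in MLN against ILN turned to -0.069 after a new quantile normalization. That step lowered the median log2 difference of all probe sets to 0.05 in MLN against ILN and 0.01 in MMN against ILN. As deposited, these median differences were 0.17 and 0.11. The mature change of YAB3 less that of CRC, -0.00126, turned to 0.00558 after the new normalization, to 3.22e-04 on linear ratios, and to 0.18 within MLN and ILN arrays of the same number, the replicate block added after the data had been seen.

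With each array left out in turn, the log2 difference in MLN against ILN ranged over -0.15 to 0.29 for CRC, 0.43 to 1.02 for YAB5, 0.15 to 0.52 for YAB3 and 0.36 to 0.85 for INO. In MMN against MLN it ranged over 0.22 to 0.66 for CRC (highest without MLN 3, limma adjusted p = 0.259), -0.17 to -0.0015 for YAB5, -0.29 to 0.064 for YAB3 and -0.73 to -0.46 for INO. In MMN against ILN it ranged over 0.34 to 0.67 for CRC, 0.34 to 0.93 for YAB5, 0.072 to 0.34 for YAB3 and -0.24 to 0.25 for INO. The mature change ranged over 0.17 to 0.40 for CRC, 0.39 to 0.99 for YAB5, 0.12 to 0.38 for YAB3 and 0.12 to 0.61 for INO. For pairs of members it ranged over 0.11 to 0.74 for YAB5 less CRC, 0.075 to 0.87 for YAB5 less YAB3, 0.24 to 0.56 for YAB5 less INO, -0.17 to 0.19 for YAB3 less CRC, -0.23 to 0.37 for INO less CRC and -0.50 to 0.25 for YAB3 less INO. The cause of these shifts was not tested.

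The number of probe sets called was 5357 for MLN against ILN, 166 for MMN against MLN and 4284 for MMN against ILN. The methods' t-test, here with Benjamini-Hochberg adjustment over all probe sets, called 773, 1 and 346 in that order. Under it SEP1, SLK1, STM, JMT and LHCB4.3 lost their calls for MLN against ILN, NGA1 and JMT for MMN against MLN, and SHP2, AP2, SLK1, NGA1 and LHCB4.3 for MMN against ILN. The study itself used another false discovery rate method, and its list of genes differing between MMN and MLN includes NGA1. The counts and lost calls given here therefore do not describe the study's own test. In MMN against MLN, array weights called 575 and the replicate block 275. That block also matched MMN arrays with lateral arrays by number, although the correlations of their deviations gave no ground for this. Leaving out 1 array gave 3566 to 6786 for MLN against ILN, 41 to 308 for MMN against MLN and 1762 to 4991 for MMN against ILN. YAB3 and INO have no value under the minimum signal of 100. With 2 to 3 arrays per type, small changes of any member could go uncalled. The limma standard errors for MLN against ILN were 0.23 for CRC, 0.26 for YAB5, 0.23 for YAB3 and 0.27 for INO. The bright pair was thus not measured more precisely than the dim pair.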
